A study of Mus musculus with 4 samples.

Results

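The nuclear genes for the machinery of oxidative phosphorylation were followed in regulatory T cells with and without Csnk2b. They were chosen by gene symbol: names beginning with Nduf and the letter a, b, c, s or v before a digit, Sdha to Sdhd, and names beginning with Uqcr, Cox4 to Cox8 or Atp5. The rule gave 86 genes of the 28032 listed features with an exon length. By symbol, 37 belong to complex I, 4 to complex II, 8 to complex III, 19 to complex IV and 18 to complex V. A further match, named as a pseudogene, was left out. The rule is one of spelling: 5 of the names it takes are not regarded here as subunits (Cox4nb, Atp5s, Atp5sl, Atp5l2 and Cox7a2l). The Ndufa4 protein is now usually assigned to complex IV.

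Sorted CD4+Foxp3+ T cells (Tregs, which restrain other immune cells) came from C57BL/6 mice 8 weeks old, either wild type (WT) or Csnk2b-deficient, given in the labels as Csnk2b-/-. Csnk2b encodes the regulatory beta subunit of the protein kinase CK2. Each genotype has a spleen library (replicate 1) and a tracheal lymph node library (replicate 2), so there are 4 libraries, 2 per genotype, and 1 for each genotype and tissue. The labels name no deleter strain, no treatment and no number of animals per library, so p-values measure only the spread between these libraries. The labels' protocols give Trizol with a TruSeq kit for samples 1 and 2, and an RNeasy kit with SMARTer amplification and Nextera XT for samples 3 and 4. Read in the order of listing, the kits divide the libraries exactly as the tissues do, so tissue and kit cannot be told apart.

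Complex I (NADH dehydrogenase) and complex II (succinate dehydrogenase) pass electrons from NADH and succinate to ubiquinone. Complex III passes them on to cytochrome c, and complex IV (cytochrome c oxidase) to oxygen. Complexes I, III and IV pump protons as they do so, and complex V, the ATP synthase, uses the returning protons to make ATP. All subunits of complex II and most of the others are nuclear genes, which NRF1, GABPA, YY1 and SP1 are known to regulate. Tregs are known for a stronger reliance on this pathway than conventional effector T cells.

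Promoters were searched for short motifs of those 4 factors on both strands, and windows with the motifs are shown because their share among member promoters can be set beside all promoters, although most members lack any given motif. RefSeq promoters on GRCm38.p6, 250 bases before to 50 after a start, were found for 66 of the 86 genes, 71 promoters in all, and set beside 32851 promoters of all genes. The palindromic NRF1 motif of 10 bases, in capitals below, stood in 5 member promoters, 7.04% against 0.971% of all promoters. Each window is on the strand of its gene.
Atp5k chr5:108434415-108434474 (minus strand): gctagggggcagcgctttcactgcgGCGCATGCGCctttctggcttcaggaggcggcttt
Cox6a1 chr5:115349086-115349145 (minus strand): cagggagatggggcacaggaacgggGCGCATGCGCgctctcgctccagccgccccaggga
Uqcrc1 chr9:108936668-108936697 (plus strand): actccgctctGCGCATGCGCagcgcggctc
Atp5g2 chr15:102671055-102671114 (minus strand): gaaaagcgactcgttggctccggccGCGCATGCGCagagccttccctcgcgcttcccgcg
Ndufa11 chr17:56717677-56717736 (plus strand): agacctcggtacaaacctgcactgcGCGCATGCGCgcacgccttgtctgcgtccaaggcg
These genes belong to complexes I, III, IV and V, so the same 10 letters occur in 4 of the 5 complexes.

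The YY1 letters AAGATGG stood in 10 member promoters, 14.1% against 6.34% of all promoters. In 8 of the 10 they lay just after the start, with the first base between positions 23 and 39, whereas 27.4% of the 2187 matches in all promoters lay after the start. Those 8 are shown with 30 bases each, capitals marking the motif.
Ndufc1 chr3:51408915-51408944 (minus strand): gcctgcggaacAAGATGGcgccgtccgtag
Atp5j2 chr5:145191500-145191529 (minus strand): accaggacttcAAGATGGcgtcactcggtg
Ndufa9 chr6:126849097-126849126 (minus strand): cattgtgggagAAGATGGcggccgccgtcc
Ndufa3 chr7:3617384-3617413 (plus strand): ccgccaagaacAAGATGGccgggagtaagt
Ndufs7 chr10:80249462-80249491 (plus strand): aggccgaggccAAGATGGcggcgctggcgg
Ndufs6 chr13:73328433-73328462 (minus strand): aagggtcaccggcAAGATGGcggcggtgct
Ndufs4 chr13:114388045-114388074 (minus strand): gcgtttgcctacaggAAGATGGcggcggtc
Ndufb8 chr19:44555393-44555422 (minus strand): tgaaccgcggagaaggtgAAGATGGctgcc
All of these except Atp5j2 are complex I genes. The motif contains the letters ATG, and whether they are annotated start codons was not examined. A second YY1 form, GCCATNTT, can overlap AAGATGG on the other strand; it stood in 16 member promoters (22.5% against 6.05%), and 9 genes had both forms.

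The GABPA letters CCGGAAG stood in 16 member promoters, 22.5% against 8.86% of all promoters. The SP1 letters GGGCGG stood in 27, or 38.0% against 35.7%. Atp5j, for the F6 coupling subunit of the ATP synthase, is shown because its second start lies 148 bases from the start of Gabpa itself, on the opposite strand; capitals mark AAGATGG and CCGGAAG.
Atp5j chr16:84835015-84835074 (minus strand): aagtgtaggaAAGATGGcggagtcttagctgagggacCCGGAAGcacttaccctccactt
A match is a string of letters, not a measured binding site, and these shares carry no test.

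Exon reads per library ran from 4737814 to 6750695, and features with reads from 12157 in the WT lymph node library to 15515 in the WT spleen library. Csnk2b had 649 reads in WT spleen, 148 in Csnk2b-deficient spleen, 667 in WT lymph node and 283 in Csnk2b-deficient lymph node. It was lower in both Csnk2b-deficient libraries, and the joint log2 value was -1.54 ± 0.26 (SE, n = 2 per genotype), at an edgeR adjusted p of 0.0658. The 6 Treg and T cell markers summed to between 3509 and 5244 CPM in every library, where CPM is the read count scaled to the library's TMM-adjusted size. Foxp3, which defines these cells, had 811, 374, 570 and 123 CPM in the same library order and was called lower in Csnk2b-deficient Tregs, at -1.66 ± 0.25 (SE; edgeR adjusted p 0.0375). Myeloid markers, 5 in number, summed to 14.0, 10.6, 46.2 and 311 CPM, and were highest in the Csnk2b-deficient lymph node library, with Lyz2 the most abundant (1291 of its reads) and Csf1r, Cd68 and Emr1 at 0 in WT lymph node. Fewer cells of a type and less RNA per cell cannot be told apart in such libraries.

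Reads were found for 81 of the 86 genes. Ndufa4l2, Cox4i2, Cox7b2, Cox8b and Cox8c, mostly isoforms known from muscle, testis or hypoxic cells, had 0 reads in all 4 libraries. A count of 0 allows up to 0.380 CPM in the deepest library and 0.733 CPM in the shallowest (3 reads, counting error only). Cox6a2, Cox6b2 and Cox7a1 had up to 1, 6 and 11 reads and did not pass the filter on low counts, which left 78 tested genes: 36 of complex I, 4 of complex II, 8 of complex III, 12 of complex IV and 18 of complex V. The members took 40938, 28206, 67418 and 78203 exon reads in the order WT spleen, Csnk2b-deficient spleen, WT lymph node and Csnk2b-deficient lymph node, which all lists of 4 values below follow. These were 0.606%, 0.578%, 1.42% and 1.42% of all exon reads, with exact binomial intervals (95%) of 0.601% to 0.612%, 0.572% to 0.585%, 1.41% to 1.43% and 1.41% to 1.43%. The share thus separated the tissues and lay close together for the genotypes.

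**Figure D1:**
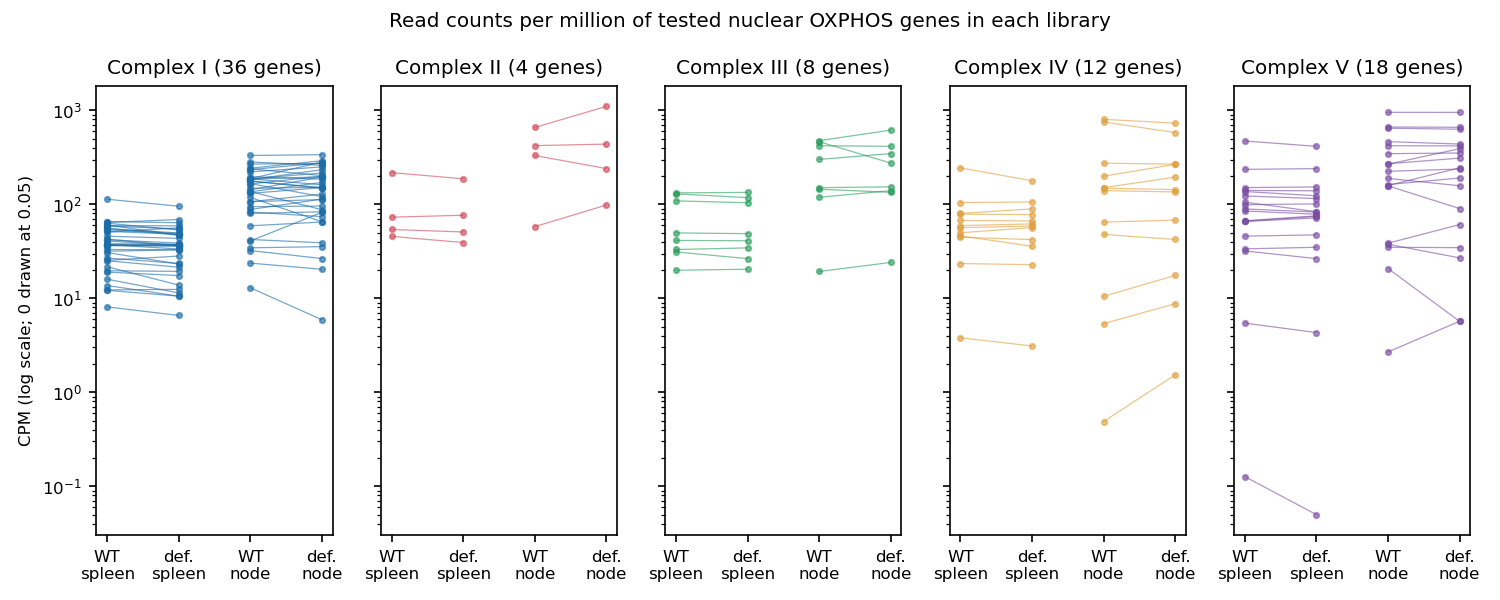
Each panel holds the tested genes of a respiratory complex, each point a gene's CPM in a library on a log axis, with lines joining WT to Csnk2b-deficient (def.) within a tissue. Most genes sit higher in both lymph node libraries, and the lines within a tissue are close to level in the spleen and more spread in the lymph node.

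The first comparison asked whether loss of Csnk2b changed these genes. None of the 78 passed the threshold of 0.05 in the joint fit of tissue and genotype, in which 0.126% of the 11113 tested features were called higher in Csnk2b-deficient Tregs and 0.018% lower (edgeR quasi-likelihood test, Benjamini-Hochberg adjusted). At an unadjusted p below 0.05, 0 members were higher (2.67% of all features) and 1 was lower (2.2% of all features). Adjusted p-values of the members ran from 0.890 to 0.999. DESeq2 and limma-voom also called 0 members. Their median log2 fold change was -0.00013, against 0.01 over all features, with a middle range of -0.13 to 0.10 against -0.28 to 0.35. By complex the medians were -0.06 for I, 0.16 for II, 0.05 for III, 0.04 for IV and 0.01 for V. With 4 libraries the joint fit leaves 1 residual degree of freedom, set by how far the pairs disagree, so a change in only 1 tissue inflates the error and is hard to call.

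The member with an unadjusted p below 0.05 was Cox7a2l. It lies at 17:83901259-83913673 (mm9). It had 1926 reads in WT spleen, 1031 in Csnk2b-deficient spleen, 3082 in WT lymph node and 2647 in Csnk2b-deficient lymph node, or 244, 178, 753 and 580 CPM. The Csnk2b-deficient library was the lower in both tissues, at -0.45 in the spleen (counting interval -0.56 to -0.34) and -0.38 in the lymph node (-0.45 to -0.30). Jointly this came to -0.41 ± 0.18 on the log2 scale (SE, n = 2 per genotype), at an edgeR p of 0.0439 and an adjusted p of 0.890. Only 40.5% of its reads had a single placement, and on those reads the log2 fold change was -0.48.

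Within the spleen the members lay close to equality. The spleen pair has 1 library per genotype, so its ratios carry a counting interval and no test. The median log2 ratio of Csnk2b-deficient to WT was -0.08, against -0.02 over all features, and 55 of the 78 members were on the lower side (53.5% of all features). None was at least 1.5-fold higher (5.98% of all features) and 1 was at least 1.5-fold lower (5.27%). This was Ndufa5, an accessory subunit of complex I, with 171 reads (WT) and 80 (Csnk2b-deficient), a log2 ratio of -0.64 (-1.05 to -0.26). Its lymph node values were 387 and 438 reads, a ratio of 0.02 (-0.18 to 0.22), so the low value was in a single library. The counting interval lay wholly below equality for 13 members (15.8% of all features) and above it for 0 (13.2%). Among these were Ndufa5, Ndufa9, Ndufa10, Ndufa12 and Ndufb3 of complex I, Sdha, Cox5b, Cox7a2l, Atp5a1, Atp5d and Atp5g3. The share below is near the background, and the share above is under it. Summed CPM moved by -0.12 (log2) for complex I, -0.14 for II, -0.05 for III, -0.10 for IV and -0.07 for V.

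In the lymph node the members spread more widely, in both directions. The median log2 ratio was 0.03, equal at this precision to that of all features, and 44 members were on the higher side (52.1% of all features). At least 1.5-fold higher were 10 members (25.8% of all features), and at least 1.5-fold lower were 6 (20.4%). The members' shares, 12.8% and 7.69%, are smaller than those of all features. Markers of other cells differed within this pair too. In WT and Csnk2b-deficient lymph node, the myeloid list summed to 46.2 and 311 CPM, the plasma cell list to 0 and 36.2, the erythroid list to 41.8 and 3.95, and the epithelial list to 2.69 and 12.3. Their part in the ratios was not tested. The counting interval lay above equality for 27 members (32.8%) and below it for 16 (30.5%). Of the 78 members, 13 were higher in both pairs (27.7% of all features), 24 lower in both (29.2%), 31 lower in the spleen and higher in the lymph node (24.3%), and 10 the reverse (18.7%).

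**Figure D2:**
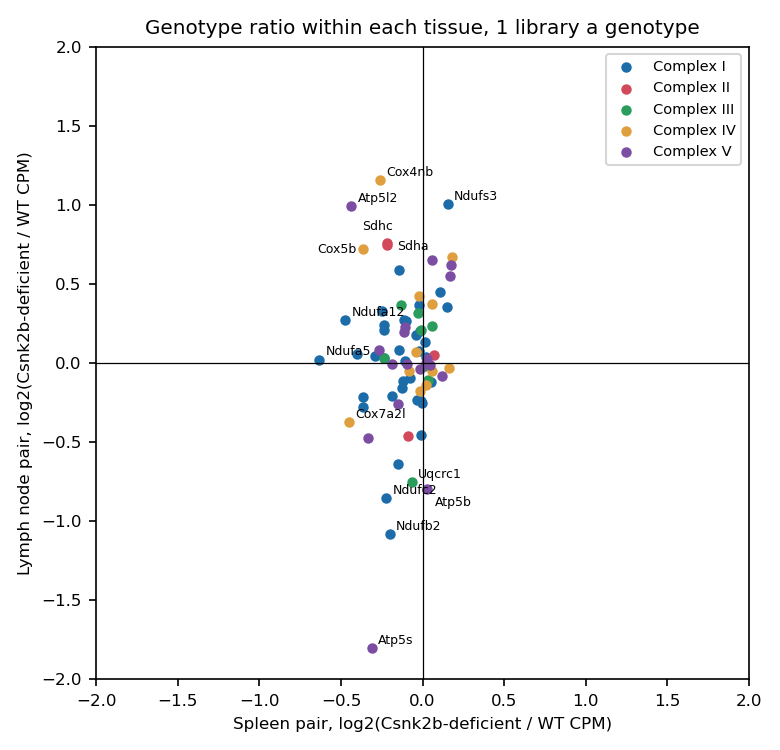
Each point is a tested member, with its log2 ratio of Csnk2b-deficient to WT CPM in the spleen pair (horizontal) and in the lymph node pair (vertical), coloured by complex. Points span -0.64 to 0.18 in the spleen and -1.80 to 1.16 in the lymph node.

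Among complex I genes, core subunits such as Ndufs1, Ndufs3, Ndufs8 and Ndufv1 carry the flavin and the iron-sulfur clusters or the ubiquinone site. Ndufs3 was the only member above both WT libraries in both Csnk2b-deficient libraries (7.18% of all features). Its CPM were 50.6 in WT spleen, 56.4 in Csnk2b-deficient spleen, 40.8 in WT lymph node and 82.2 in Csnk2b-deficient lymph node. The log2 ratio was 0.16 (-0.06 to 0.37) in the spleen and 1.00 (0.74 to 1.28) in the lymph node, and the joint value was 0.58 ± 0.32 (edgeR adjusted p 0.890). Ndufs3 overlaps Kbtbd4, whose lymph node reads were 292 (WT) and 627 (Csnk2b-deficient), and reads where the genes overlap are uncertain, since the use of strand is not known. Ndufv1, which binds the flavin that takes electrons from NADH, had the opposite sign, with 435, 287, 560 and 400 reads and a lymph node ratio of -0.64 (-0.83 to -0.45). Ndufs1, the largest core subunit, had 506, 399, 585 and 892 reads and a joint value of 0.28 ± 0.24 (SE).

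Among the accessory subunits, Ndufc2 and Ndufb2 of the membrane arm had the lowest joint values. Ndufc2 had 198, 124, 485 and 298 reads, and its lymph node ratio was -0.86 (-1.07 to -0.65) beside -0.22 (-0.56 to 0.10) in the spleen. Ndufb2 was the only member with both Csnk2b-deficient libraries below both WT libraries (7.08% of all features), on 96, 61, 53 and 27 reads. Its joint value was -0.65 ± 0.67, an error as large as the value. Ndufa3 had 768 and 1289 reads in the lymph node, a ratio of 0.59 (0.46 to 0.72), and 321 and 213 in the spleen. Ndufa4 and Ndufa6 had the highest levels per kilobase of complex I. Ndufa4 was at 65.6, 63.8, 222 and 250 CPM, and Ndufa6 at 51.6, 48.1, 242 and 292 CPM, so the tissues lay further apart than the genotypes.

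Complex II had the highest joint median, and the 4 subunits did not move together. Sdha, the flavoprotein that oxidizes succinate, lies at 13:74459702-74487728 (mm9) and had 1718, 1081, 2691 and 5028 reads, all of them singly placed. Its log2 ratio was -0.22 (-0.33 to -0.11) in the spleen and 0.74 (0.68 to 0.81) in the lymph node, so the counting intervals lie on opposite sides of equality. The joint value was 0.27 ± 0.23 (edgeR adjusted p 0.895). Sdhc, a membrane anchor, had 360, 227, 237 and 449 reads and ratios of -0.22 (-0.46 to 0.03) and 0.76 (0.53 to 1.00). Sdhd, the other anchor, had 426, 294, 1355 and 1097 reads and ratios of -0.09 (-0.31 to 0.13) and -0.46 (-0.58 to -0.35). Sdhb, the iron-sulfur subunit, had 576, 443, 1726 and 1996 reads and was near equality in both tissues, at 0.07 (-0.11 to 0.25) and 0.05 (-0.04 to 0.15). In the lymph node, then, 2 subunits were on the higher side, 1 near equality and 1 on the lower side, with 1 library per genotype.

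In complex III the value farthest from equality was that of a core subunit. Uqcrc1, a core protein of the matrix side, had 859, 602, 1898 and 1255 reads, with a ratio of -0.07 (-0.22 to 0.09) in the spleen and -0.75 (-0.86 to -0.65) in the lymph node. Its partner Uqcrc2 had 1045, 775, 1720 and 1892 reads and ratios of 0.02 (-0.12 to 0.15) and -0.02 (-0.11 to 0.08). Uqcrh, the acidic hinge protein, and Uqcrb, a small ubiquinone-binding subunit, were the most abundant per kilobase. Uqcrh was at 129, 118, 477 and 616 CPM and Uqcrb at 41.3, 41.0, 301 and 347 CPM. Of the Uqcrb reads, 33.2% were singly placed.

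In complex IV, Cox4i1 was the most abundant member per kilobase of all 86, at 105, 106, 804 and 731 CPM. It is the common form of a regulatory subunit and showed ratios of 0.02 (-0.13 to 0.17) and -0.14 (-0.21 to -0.07). Only 33.8% of its reads were singly placed. Cox5a and Cox5b, both peripheral subunits, had few reads in the lymph node: Cox5a 393, 327, 22 and 40, and Cox5b 365, 207, 43 and 80. The Cox5b ratio was -0.37 (-0.62 to -0.12) in the spleen and 0.72 (0.19 to 1.31) in the lymph node. The highest joint value of this complex, 0.48 ± 1.42, belonged to Cox4nb on 30, 18, 2 and 7 reads. Its protein is known as a part of the membrane complex of the endoplasmic reticulum, now called Emc8.

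In complex V the joint values ran from -1.11 to 0.46. Atp5j2, the f subunit of the membrane part, had 521, 431, 649 and 1115 reads and a joint value of 0.40 ± 0.23 (edgeR adjusted p 0.890), higher in both Csnk2b-deficient libraries than in WT of the same tissue. Atp5b, the catalytic beta subunit, had 1859, 1388, 644 and 412 reads, with ratios of 0.03 (-0.08 to 0.13) and -0.80 (-0.98 to -0.62). Atp5d, the delta subunit of the rotor stalk, had 832, 483, 154 and 123 reads and was lower in both, at -0.34 (-0.50 to -0.17) and -0.48 (-0.84 to -0.13). The counting interval lay below equality in both tissues for Atp5d, Atp5g3 and Cox7a2l. How many of all features do the same was not counted, so this is not shown to be particular to the members. Taken singly, the spleen interval lay below equality for 15.8% of all features, and the lymph node interval for 30.5%. Atp5s, named for coupling factor B and not regarded here as a subunit, had the lowest joint value, -1.11 ± 0.79. It rested on 43, 25, 85 and 26 reads, and the WT lymph node library alone stood high. Atp5l2 had 1, 0, 11 and 26 reads, too few in the spleen for a fold change.

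The comparison of tissues showed far larger values than the comparison of genotypes. Of the 78 tested members, 60 were higher in the lymph node libraries (23.3% of all features) and 6 were lower (22.2%), in the same edgeR fit with adjusted p below 0.05. The median log2 difference was 1.84, against -0.17 over all features. It was 1.79 in the WT libraries and 1.92 in the Csnk2b-deficient ones. Both lymph node libraries were above both spleen libraries for 67 members (35.9% of all features) and below for 9 (40.7%), and only Ndufb2 and Ndufs3 overlapped. Over all members, CPM summed to 5192 and 4879 for spleen Tregs, against 16478 and 17145 for lymph node Tregs. The TMM factors behind these CPM were 1.17 and 1.19 for the spleen libraries and 0.865 and 0.831 for the lymph node libraries. The unscaled shares of exon reads, 0.606% and 0.578% against 1.42% and 1.42%, lay less far apart as a ratio. The same separation holds for the kits, if the samples were listed in the order of their numbers. The B cell markers moved with the tissues too, at 15.6, 17.0, 148 and 98.7 CPM in sum over 5 genes. Cd79b made up most of that sum and Pax5 was at 0. Of the myeloid markers only Lyz2 was higher in both lymph node libraries than in both spleen libraries, and the part of these genes in the differences was not tested.

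Each complex took part. Called higher and lower were 30 and 0 of 36 in complex I, 3 and 0 of 4 in complex II, 7 and 1 of 8 in complex III, 8 and 3 of 12 in complex IV, and 12 and 2 of 18 in complex V. The median differences were 2.12, 2.25, 2.03, 1.51 and 1.64. By p-value the 6 clearest were Cox4i1, Atp5c1, Uqcrb, Ndufs8, Atp5o and Sdhb. Only 33.8% of Cox4i1 reads, 33.2% of Uqcrb reads and 37.0% of Atp5o reads were singly placed, and these genes kept their calls on such reads. Cox4i1 overlaps Gm20388, and Atp5o overlaps 6 features. Ndufs8, a core iron-sulfur subunit, went from 31.7 and 32.9 CPM in the spleen to 283 and 260 in the lymph node, a log2 difference of 3.07 ± 0.24 or 8.40-fold (edgeR adjusted p 4.31e-06). Atp5c1, the gamma subunit that turns inside the catalytic head, went from 151 and 153 to 954 and 952 CPM, or 2.65 ± 0.19. Atp5o, the stalk subunit that gives oligomycin sensitivity, went from 65.8 and 71.6 to 465 and 438 CPM. Sdhb differed by 2.52 ± 0.21, Uqcrb by 2.97 ± 0.23 and Cox4i1 by 2.86 ± 0.20. A small p-value in this fit favours genes with close genotypes and separate tissues, so that pattern in these genes follows from the choice.

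The 6 genes called lower in the lymph node were Cox5a, Cox5b, Cox8a, Uqcrfs1, Atp5b and Atp5d, all of them genes of complexes whose other members were mostly higher. Cox5a, at 9:57369039-57380231 (mm9), went from 49.8 and 56.6 CPM in spleen libraries to 5.38 and 8.77 in lymph node libraries, a log2 difference of -2.93 ± 0.41 (edgeR adjusted p 0.000178). Atp5d went from 106 and 83.5 CPM to 37.6 and 27.0, or -1.56 ± 0.28 (adjusted p 0.00100 by edgeR). Cox5b went from 46.3 and 35.8 to 10.5 and 17.5 CPM, or -1.57 ± 0.43. Uqcrfs1, the Rieske iron-sulfur protein of complex III, went from 49.7 and 48.8 to 19.3 and 24.1 CPM, or -1.19 ± 0.36. Atp5b differed by -0.99 ± 0.25 and Cox8a, a small membrane subunit of complex IV, by -0.80 ± 0.28. The alpha subunit gene Atp5a1, whose protein alternates with that of Atp5b in the catalytic head, was called higher at 0.58 ± 0.18. Within the rotor stalk, Atp5c1 was higher and Atp5d lower.

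Fewer calls were made with a spleen library left out, among the members and over all features. Without the WT spleen library the members gave 51 higher and 1 lower (Cox5a), while all features went from 2586 higher and 2464 lower to 1255 and 931. Without the Csnk2b-deficient spleen library the members gave 51 higher and 2 lower (Cox5a and Atp5d), and all features 1296 and 1026. No call changed direction. Without the WT or the Csnk2b-deficient lymph node library, the members' median log2 difference was 1.92 and 1.78, beside -0.09 and -0.18 over all features. On singly placed reads, Cox5b (47.1% singly placed), Cox7c (26.8%), Atp5l (7.19%) and Atp5l2 (5.26%) lost their calls. Atp5l then had a difference of 0.63 in place of 2.18 (edgeR adjusted p 0.399). Atp5b, Atp5d and Cox5a overlap Baz2a, Dos and Gm17596, so their reads are uncertain where the exons meet.

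**Figure D3:**
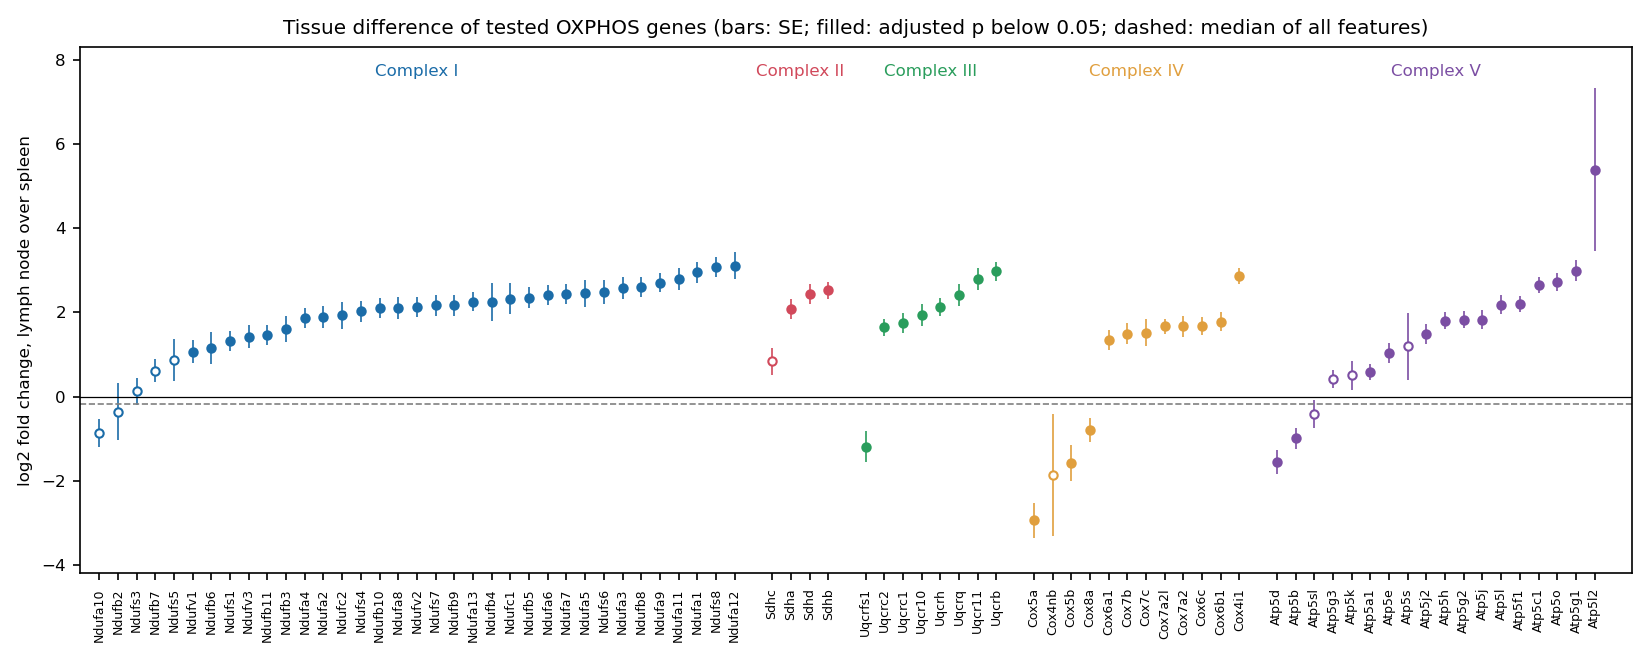
Points are the fitted log2 difference between lymph node and spleen libraries for 77 of the 78 tested members, with SE bars, ordered within each complex; filled points have an edgeR adjusted p below 0.05 and the dashed line is the median of all features. Most members lie well above the dashed line, and Cox5a, Cox5b, Cox8a, Uqcrfs1, Atp5b and Atp5d lie below 0 as filled points.

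Genes with the motifs were mostly among the higher tissue calls, as were the members as a whole. All 10 genes with AAGATGG were called higher in the lymph node, as were 4 of the 5 with the NRF1 motif and 12 of the 16 with CCGGAAG, beside 60 of 78 members in all. Cox8a was the only lower call with CCGGAAG, and Atp5b the only 1 with GCCATNTT.

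Transcript length and GC content moved with the tissue difference over all features, and the members are short. Their median exon length was 1328 bases, against 3659 over all tested features, counted over all annotated exons. Among the 2223 shortest features (36 to 1981 bases), 39.0% were called higher in the lymph node, beside 44 of the 52 members among them. Over all features with a value, the Spearman correlation of the difference with GC content was -0.39 (9428 genes) and with length -0.28 (11113 features). Over the members the values were -0.02 (75 genes) and -0.20 (78 genes). These are descriptions across genes that share 4 libraries. Of the 1886 features of highest GC content, 7.95% were called higher, beside 11 of 14 members. Of member gene reads, introns included, exon reads made up 84.1% and 82.7% in spleen libraries against 95.3% and 94.7% in lymph node libraries, while the share over all features was between 76.2% and 78.9%. The part of these properties in the result was not tested.

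**Figure D4:**
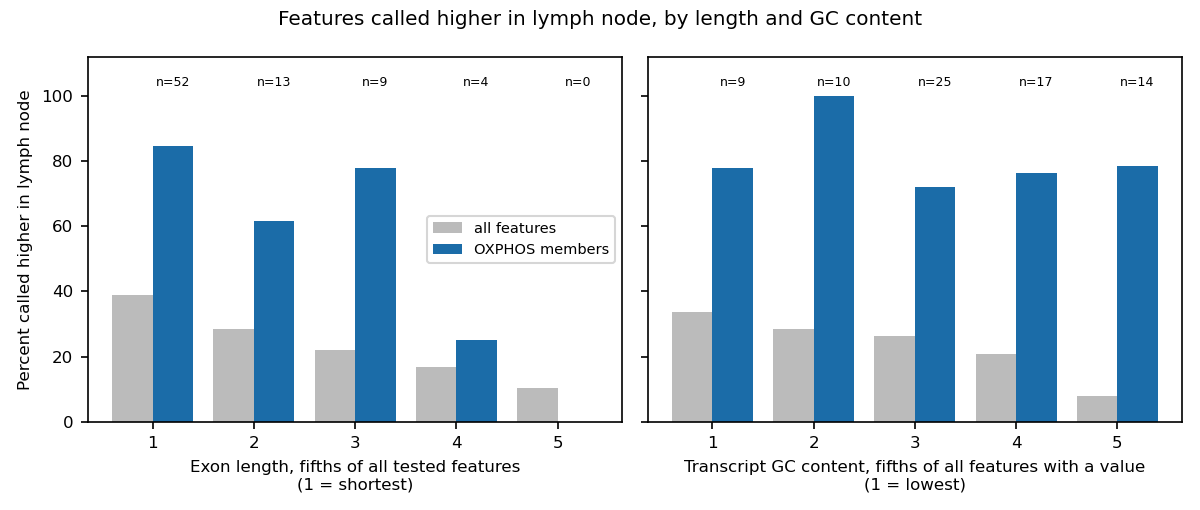
Bars give the percent of features called higher in the lymph node in 5 equal bins of exon length (left) and of transcript GC content (right), for all tested features (grey) and for members (blue), with the number of members above. In the bin of shortest features 39.0% of all were called higher, and the members stood at 44 of 52.

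Isoform genes of the same subunit were compared per kilobase within each library. The c subunit of the ATP synthase rotor is made from Atp5g1, Atp5g2 and Atp5g3, which differ in the import peptide and give the same mature protein. Atp5g2 held 73.3% and 74.2% of the family's reads per kilobase in spleen libraries, against 83.1% and 84.3% in lymph node libraries. Atp5g3 went the other way, from 24.2% and 23.6% to 11.1% and 9.42%. The Atp5g1 share went from 2.51% and 2.25% to 5.86% and 6.30%. In these shares per kilobase, the genotypes of a tissue were within 2 percentage points of each other, while the tissues were further apart. Only 12.0% of Atp5g1 reads and 40.9% of Atp5g2 reads were singly placed, whereas all Atp5g3 reads were. On singly placed reads, Atp5g3 went from 76.9% and 73.5% of the reads to 47.0% and 42.0%. In this share the genotypes of a tissue lay further apart than per kilobase.

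Most other families had a single dominant gene. Cox4i1, Cox8a and Ndufa4 held all reads of their families, and Cox6a1 all but 1. Cox6b1 held between 98.6% and 99.9% of reads per kilobase, with Cox6b2, known from testis, at up to 1.41%. The Cox7a names include Cox7a2l, which is not regarded here as a subunit, so these are not shares among forms of the same subunit. Cox7a2l held 77.7%, 73.2%, 77.2% and 73.7% of their reads per kilobase, and Cox7a2 held 21.6%, 26.4%, 21.9% and 26.2%. On singly placed reads, Cox7a2l held 70.1%, 63.6%, 73.2% and 66.7% of the reads. The Cox7a2l share was thus lower in the Csnk2b-deficient library of both tissues. Cox7a1, the heart and muscle form, held at most 0.869% in any library.

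Genes around the pathway were taken from 5 lists. None of their genes was called by genotype (edgeR), and 1, a ribosomal protein gene, was lower at an unadjusted p below 0.05. Their median log2 fold changes were 0.01 for 28 tested assembly factors, -0.22 for 10 electron carriers, 0.13 for 13 genes of the tricarboxylic acid cycle, -0.07 for 76 mitochondrial ribosomal proteins and -0.29 for 13 regulators. In the tissue comparison, where 23.3% of all features were called higher and 22.2% lower, 13 of 28 assembly factors were higher and 1 lower. The counts were 5 and 0 of 10 electron carriers, 12 and 0 of 13 genes of the cycle, 48 and 8 of 76 ribosomal proteins, and 1 and 4 of 13 regulators. Cycs, cytochrome c itself, had 351, 281, 1742 and 1738 reads and a tissue difference of 3.11. Cs, the citrate synthase that opens the cycle, had 1211, 984, 1425 and 2490 reads, and Ogdh, a later enzyme of it, 1417, 998, 892 and 2255. Dld, the shared dehydrogenase component, had the opposite sign in the lymph node, with 557, 409, 1221 and 788 reads.

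The regulators had a median tissue difference of -0.29, beside -0.17 over all features and 1.84 for the members. Nrf1 was the regulator called higher in the lymph node, at 58.1, 54.3, 106 and 104 CPM, a difference of 0.90 (edgeR adjusted p 0.0128). Gabpa was at 89.4, 93.1, 110 and 69.9 CPM, and Tfam, the packaging factor of mitochondrial DNA, at 68.5, 64.5, 96.1 and 92.7, and neither was called. Esrra, a nuclear receptor known to drive oxidative genes, went from 266 and 183 reads in spleen libraries to 7 and 4 in those of the lymph node. Polrmt, the mitochondrial RNA polymerase, went from 338 and 216 to 38 and 32. Both were called lower in the lymph node. Some extremes of the lists rested on few reads. Sco1, a copper chaperone of complex IV, had 3 reads in the WT and 46 in the Csnk2b-deficient library of the lymph node, and Tfb1m, which modifies mitochondrial ribosomal RNA, had 0 and 62.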

How the data were processed

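The data are 2 WT and 2 Csnk2b-deficient Treg libraries read on a MiSeq. The authors deposited total and uniquely placed exon and gene read counts with exon lengths, and RPKM, per the file headers. The submitters' processing notes name CASAVA 1.8.2 and mm9. The aligner, annotation and strand setting were not given in the sources used here. Of 37583 listed features, the 28032 with an exon length were kept.

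Tests ran on total exon read counts in R 4.3.3 with edgeR 4.0.16. They used TMM factors, the filterByExpr filter by genotype, the robust quasi-likelihood test on tissue plus genotype, and Benjamini-Hochberg adjustment over 11113 features at 0.05. The labels give both libraries of a replicate number the same tissue, so the tissue term is the replicate block. It leaves 1 residual degree of freedom, moderated over genes (prior 10.1; biological coefficient of variation 30.0%). Pair ratios subtract log2 CPM (prior count 2), and their intervals are exact binomial ones (95%) that cover counting error only; so do all intervals and floors. Levels per kilobase divide CPM by the length of all annotated exons, so they understate genes with long annotated variants. The fitting step was run on simulated counts with less spread between libraries than these data have. That run does not show how many real changes would be called here.

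Alternatives were median-of-ratios (RLE) and upper-quartile scaling, no filter, a filter at 5 CPM, DESeq2 1.42.0, limma-voom 3.58.1, uniquely placed reads, no block, a prior count of 0.5, and each library left out. GC content came from GENCODE transcripts matched by symbol. The members and lists were chosen with earlier results of these data known. The text names Csnk2b, for each complex the 2 most abundant members per kilobase and the 2 highest and lowest by genotype, up to 6 called members per direction, the isoform genes and the extremes of each list. Other genes were named after their values were seen. The values of 1 member are not reported here, and it stays in all counts and fits.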

Additional observations from a re-analysis of the deposited data

Results flagged for a closer look

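For the members named here the genotype ratio lay on opposite sides of equality in the tissues, with counting intervals that exclude equality in both. The difference between the tissues was not tested, since each genotype and tissue has 1 library. In log2 units, lymph node ratio minus spleen ratio was 1.09 for Cox5b, 0.96 for Sdha, 0.74 for Ndufa12 and 0.48 for Ndufv2. All were lower in the Csnk2b-deficient spleen library and higher in the Csnk2b-deficient lymph node library. The share of all features with this pattern was not counted, so the pattern is not shown to be particular to the members. Over all features, the interval lay below equality for 15.8% in the spleen pair and above it for 32.8% in the lymph node pair. Ndufv2, a core subunit of complex I, had a spleen ratio of -0.24 and a lymph node ratio of 0.24. Ndufa12, an accessory subunit, had -0.47 and 0.27. Cox5b rests on 43 and 80 reads in the lymph node.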

How the results depend on the processing

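No member was called by genotype under any alternative, and 0 to 3 had an unadjusted p below 0.05. Over all features, the 16 genotype calls became 4 with RLE factors, 111 without a filter, 54 with DESeq2, 60 with limma-voom and 7 on uniquely placed reads. Without the replicate block there were 0 calls by edgeR (29 at an unadjusted p below 0.05), and leaving out each library gave 0 to 1. With a library left out, the genotype fit carries no tissue term, so the tissues are unbalanced, and the members' median log2 change ranged from -1.19 to 1.27. Csnk2b passed the threshold without a filter (-1.54, adjusted p 4.99e-05), with DESeq2 (-1.53, 0.00534) and with limma-voom (-1.52, 0.00374), and ranged from -2.22 to -0.88 over fits without a library. Why these values moved was not tested.

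Members called by tissue numbered 62 to 69 over the settings and 52 to 72 without a library, with no call reversed. Over all features the calls numbered 4601 to 5616 and 2186 to 7874. Upper-quartile scaling moved the median of all features from -0.17 to -0.32. Cox8a lost its call with RLE factors and DESeq2, Atp5b without the genotype term, and Atp5a1 and Ndufb6 with upper-quartile scaling. Leaving out the 5 names not regarded as subunits, an alternative chosen after seeing the data, left 58 higher and 6 lower of 73. Depth limits the 0 reads of 5 members and the ratios of Cox4nb, Atp5l2, Atp5s and Ndufb2.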
